A study of Mus musculus with 8 samples.

Results

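The liver breaks down phenylalanine and tyrosine along one route, and 9 genes of that route were followed here: Gch1, Pcbd1, Qdpr, Tat, Got1, Hpd, Hgd, Gstz1 and Fah. They were chosen by name, and for each gene the estimated counts of all its transcripts were summed in each mouse. They were 9 of the 35975 genes of the table, and all 9 were among the 12883 genes tested. The samples were livers of C57BL/6 mice (C57BL/6J in the study's methods) that were 8 to 10 weeks old when bought. Every mouse carried a catheter in the portal vein, fed by an osmotic pump for 2 weeks. In 4 control mice the pump held normal saline, and in 4 treated mice it held 55 mM 4-hydroxyphenylacetic acid (4-HPAA), both delivered at 0.25 µL per hour. The comparison asks what the infused compound does to liver transcripts, since 4-HPAA is a phenolic acid that gut bacteria make from tyrosine and polyphenols. Nothing in the labels ties the mice to batches, litters or days.

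Phenylalanine is first hydroxylated to tyrosine, a step that uses up the cofactor tetrahydrobiopterin. GTP cyclohydrolase 1 (Gch1) starts the synthesis of that cofactor, and the dehydratase Pcbd1 and the reductase Qdpr return it to its active form. Tyrosine then loses its amino group to tyrosine aminotransferase (Tat), a hepatocyte enzyme known to be induced by glucocorticoids, or to aspartate aminotransferases such as the cytosolic Got1. The product is oxidized by Hpd to homogentisate, the ring is opened by Hgd, the product is isomerized by Gstz1, and Fah splits it into fumarate and acetoacetate. Inherited loss of Hgd causes alkaptonuria, and loss of Fah causes tyrosinemia with liver damage.

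The 9 genes lie on 8 chromosomes of GRCm38 (GENCODE M21). Those of the cofactor are at chr14:47153895-47189413 (Gch1, minus strand), chr10:61089331-61094324 (Pcbd1, plus strand) and chr5:45434021-45450236 (Qdpr, minus strand). The aminotransferases are at chr8:109990437-109999803 (Tat, plus strand) and chr19:43499752-43524605 (Got1, minus strand). Hpd, also on chromosome 5, is at chr5:123171807-123182727 (minus strand) and Hgd at chr16:37580153-37632020 (plus strand). Gstz1 is at chr12:87147165-87164723 (plus strand) and Fah at chr7:84585159-84606722 (minus strand). Pcbd1, Tat, Fah and Got1 overlap no other annotated gene.

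Each library held between 29559978 and 30673398 estimated counts, and the lowest count of a member in any mouse was 3020 (Pcbd1). Counting error was not compared with the differences between mice. Hepatocyte transcripts were abundant, with Alb at 73130 to 100800 CPM (counts scaled to a common library size by TMM normalization). Of the 8 hepatocyte markers listed, 7 were found by symbol in the annotation and could be summed. The exocrine pancreas list of 7 genes summed to 8.86 to 15.2 CPM, nearly all of it Cela1 (7.83 to 14.2 CPM), while Pnlip and Prss2 were at 0 in every library. Libraries of saline mouse 4 and 4-HPAA mouse 4 stood apart from the other 6. Their summed pericentral list was 5831 and 6789 CPM, against 8509 to 9400 CPM elsewhere, and Glul, which marks hepatocytes at the central vein, was 415 and 512 CPM against 809 to 966 CPM. The summed periportal list of 7 genes was highest in saline mouse 4 (12470 CPM), while 4-HPAA mouse 4 (10800 CPM) was level with 4-HPAA mouse 1 (10750 CPM). The summed hepatocyte list, most of it Alb, was highest in both, at 131900 and 131700 CPM against 99750 to 116500 CPM. The summed endothelial list was also lowest there, at 118 and 109 CPM against 143 to 196 CPM, as was the summed list for Kupffer cells and leukocytes, at 65.0 and 58.9 CPM against 74.9 to 195 CPM, and the stellate cell list, at 94.8 and 108 CPM against 127 to 191 CPM. These sums are weighted to abundant genes, and not every gene of a list followed. Alb, Serpina1a and Cyp2e1 followed their lists. Oat of the pericentral list was lowest in saline mouse 1 (344.5 CPM), and Marco of the Kupffer cell list in 4-HPAA mouse 1 (1.955 CPM). Lyve1 of the endothelial list was at 15.53 CPM in 4-HPAA mouse 4, above every mouse but saline mouse 1 (17.09 CPM). Of the stellate cell list, Col1a1 was lowest in saline mouse 3 (1.771 CPM). Des was higher in 4-HPAA mouse 4 (2.483 CPM) than in saline mouse 2 (1.955 CPM). Cps1 of the hepatocyte list was highest in saline mouse 1 (4714 CPM). Apoa1 of that list was at 9502 CPM in saline mouse 4, below saline mouse 1 (11050 CPM). Ttr, Apoa2 and Cyp3a11 were lower in saline mouse 4 than in 4-HPAA mouse 1. Red blood cell transcripts were most abundant in saline mouse 2 (2560 CPM over 5 genes) and 4-HPAA mouse 4 (735 CPM). In whole liver, fewer cells of a type and less RNA per cell cannot be told apart.

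The levels of the 9 genes overlapped between the groups, and none passed the test. Of all 12883 genes tested, 6489 estimates were above 0 and 6394 below. Over the 9 genes, 2 estimates were above 0 (Gch1 and Tat) and 7 were below, with a median log2 fold change (4-HPAA over saline) of -0.01. That count rested on single mice: without saline mouse 4, 8 of 9 estimates were above 0, and without 4-HPAA mouse 2, 6 were, while without saline mouse 3 or 4-HPAA mouse 4 it was 1. The median size of the change, whatever its sign, was 0.06 on the log2 scale for the members and 0.07 for all genes tested. By the quasi-likelihood test of edgeR (p adjusted by the Benjamini-Hochberg method) 0 of 9 members had an adjusted p under 0.05, and so did 0% of all genes tested. At an unadjusted p under 0.05 the count was 0 of 9, where 1.75% of all genes were called. Groups that did not overlap in CPM were seen in 0 of 9 members and in 1.2% of all genes. DESeq2 and limma-voom also called 0 members.

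**Figure D1:**
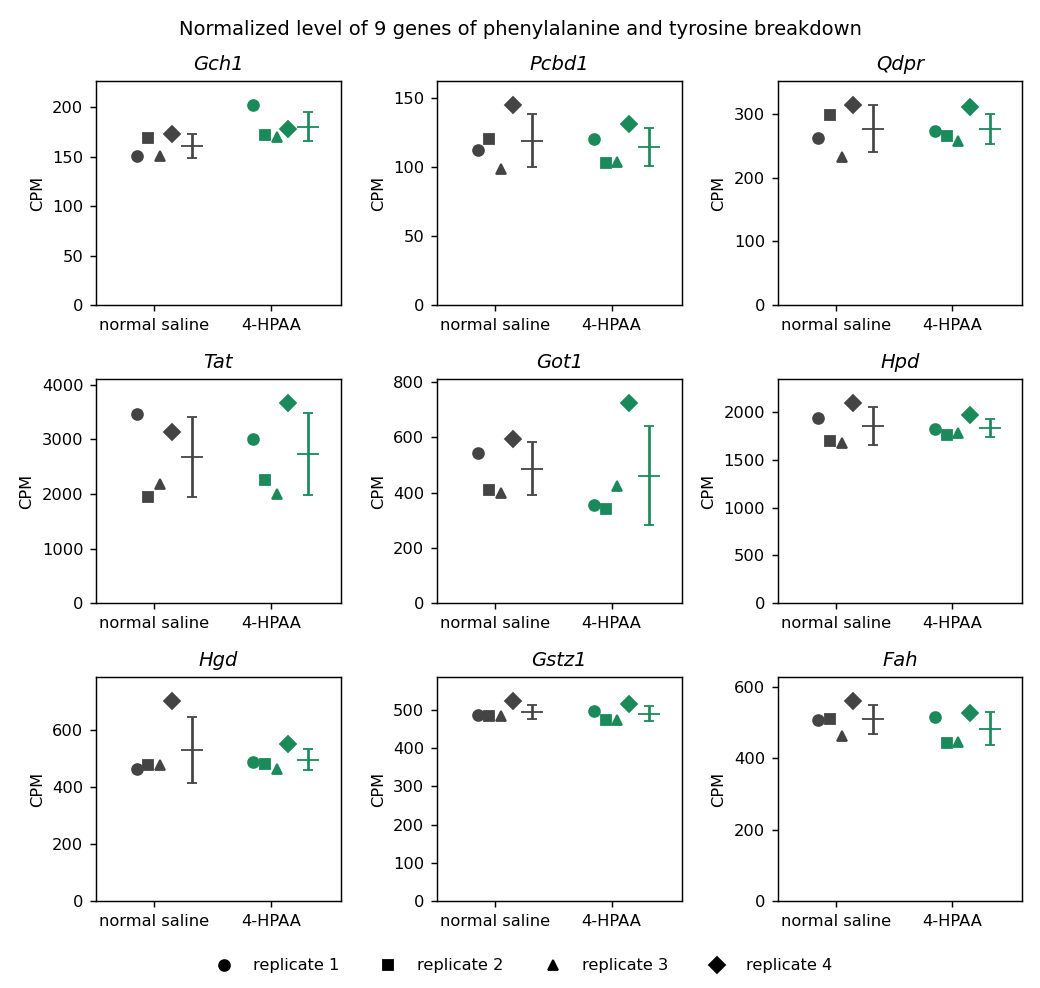
Normalized level in CPM (vertical axes from 0) of each of the 9 genes in each mouse, with normal saline in grey and 4-HPAA in green. Marker shape gives the replicate number of the labels, and the bar beside each group is its mean ± SD (n = 4). The labels do not say whether mice of the same number belong together. Replicate 4 of the saline group is the highest of all 8 mice in 6 genes.

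**Figure D2:**
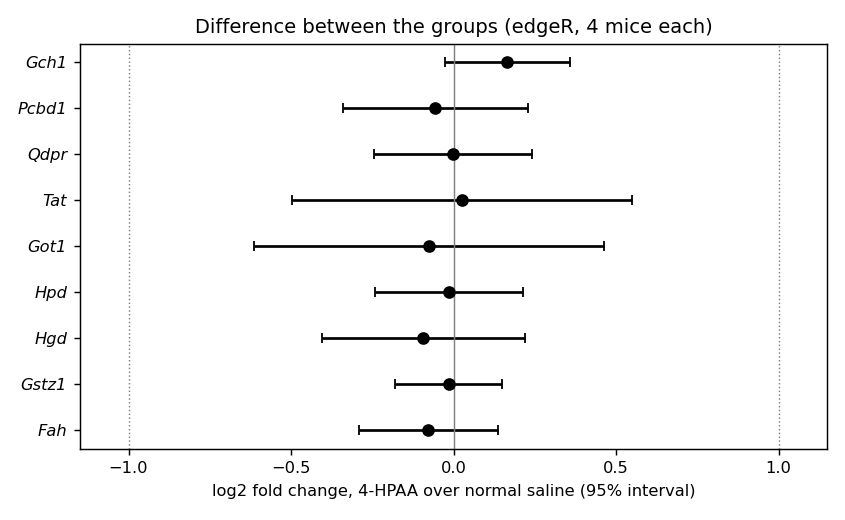
Log2 fold change (horizontal axis, 4-HPAA over normal saline) of each gene with its 95% interval from edgeR, 4 mice in each group. Every interval crosses 0 (solid line), and all lie between the dotted lines that mark a 2-fold change in either direction.

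Among the genes of the cofactor, Gch1 had the largest estimate of the 9. It was at 151, 169, 150 and 173 CPM in saline mice 1 to 4 and at 202, 172, 169 and 178 CPM in 4-HPAA mice 1 to 4. The highest saline mouse (173 CPM) was above 2 of the 4-HPAA mice, so the groups overlapped. The means were 161 ± 11.7 CPM with saline and 180 ± 14.9 CPM with 4-HPAA (SD, n = 4 each). The log2 fold change was 0.16 with an SE of 0.09 and a 95% interval of -0.03 to 0.36, which is a fold of 0.98 to 1.28 (edgeR, adjusted p = 1.00). In order of p it was number 451 of 12883 genes. An exact permutation test of log2(CPM + 1) gave p = 0.114 (two-sided), where 4 mice against 4 cannot go below 0.0286. 4-HPAA mouse 1 contributed most to the estimate, which was 0.11 without it.

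On a second scale Gch1 did separate. On the TPM scale, in which counts are divided by transcript length and no TMM factor enters, its levels were 92.0, 96.5, 88.4 and 99.4 with saline and 113, 103, 102 and 101 with 4-HPAA. The lowest treated mouse was therefore above the highest control (means 94.1 ± 4.84 and 105 ± 5.31 TPM, n = 4 each, exact permutation test, two-sided, p = 0.0286, the smallest this design allows). Gch1 was 1 of 9 members without overlap on that scale, and 1.3% of all genes tested had none. This p is for a single gene among 9 that were compared. Its full-length transcript Gch1-201 held 96.8% of its counts and gave a log2 fold change of 0.19 with an SE of 0.09 (edgeR, adjusted p = 1.00).

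The bases before Gch1 are shown because it had the largest estimate. The window of 250 bases ends at the RefSeq start (GRCm38.p6, chr14:47189414-47189663, minus strand, 5′ to 3′ along the gene). Capitals mark, on either strand, the CCAAT box by those letters, the core of the TATA box as TATAAA, and the core of the GC box as GGGCGG.
Gch1: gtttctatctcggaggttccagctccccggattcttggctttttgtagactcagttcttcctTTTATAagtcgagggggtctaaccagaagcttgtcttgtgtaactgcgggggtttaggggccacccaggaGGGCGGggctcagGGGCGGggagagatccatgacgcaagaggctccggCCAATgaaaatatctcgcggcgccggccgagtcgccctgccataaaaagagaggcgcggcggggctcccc
It holds 1 CCAAT, 2 GGGCGG and 1 TATAAA on the other strand, 183 to 188 bases before the start. Of 32817 windows of this length before mouse genes, 33.8% hold at least 1 CCAAT, 16.7% at least 2 GGGCGG and 12.4% at least 1 TATAAA. These motifs were chosen after the sequences were seen, and a match describes letters only.

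Pcbd1 was, by length-corrected level, the least abundant member after Gch1. It was at 113, 121, 99.1 and 145 CPM with saline and at 121, 103, 104 and 132 CPM with 4-HPAA. Both replicates numbered 4 were the highest of their group, and the groups overlapped over most of their range. The means were 119 ± 19.4 and 115 ± 13.9 CPM, and the log2 fold change was -0.06 with an SE of 0.13 (95% interval -0.34 to 0.23, adjusted p = 1.00).

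Qdpr, the dihydropteridine reductase, was nearly level between the groups. It was at 263, 298, 232 and 313 CPM with saline and at 273, 265, 257 and 310 CPM with 4-HPAA. The means were 277 ± 36.3 and 276 ± 23.4 CPM. The treated mice all lay inside the range of the saline mice. The log2 fold change was -0.0013 with an SE of 0.11, and its interval of -0.24 to 0.24 leaves out changes beyond a fold of 0.84 or 1.18 (adjusted p = 1.00).

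Tat was one of the most variable members. It was at 3461, 1951, 2182 and 3139 CPM in saline mice 1 to 4. In the 4-HPAA mice it was at 3003, 2254, 2006 and 3667 CPM. Within each group mice 1 and 4 were above mice 2 and 3, and the highest of all 8 mice was 1.88 times the lowest. The group means, 2683 ± 731 and 2733 ± 754 CPM, differed by far less than the mice of a group did. The log2 fold change was 0.03 with an SE of 0.23, and the 95% interval, a fold of 0.71 to 1.46, was correspondingly wide (adjusted p = 1.00).

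Got1, the cytosolic aspartate aminotransferase, varied as much. It was at 543, 410, 399 and 592 CPM with saline and at 354, 343, 425 and 723 CPM with 4-HPAA. The treated group held both the highest mouse (4) and the lowest (2) of all 8. The means were 486 ± 96.5 and 461 ± 178 CPM, with a log2 fold change of -0.08, an SE of 0.24 and a 95% interval of -0.61 to 0.46, or a fold of 0.65 to 1.38 (adjusted p = 1.00). This estimate depended on single mice. It turned to 0.03 without saline mouse 4 and to 0.04 without either 4-HPAA mouse 1 or 4-HPAA mouse 2. Without 4-HPAA mouse 4 the log2 fold change was -0.39 (edgeR, adjusted p = 1.00), and without that mouse and saline mouse 2, both rich in globin RNA, it was -0.46 (adjusted p = 1.00). Over 153 alternative fits of members these were the 2 with an unadjusted p under 0.05. In the same 2 settings 287 and 285 of all genes tested had an unadjusted p under 0.05 (edgeR).

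The windows before Tat and Got1 are shown because these genes differed most between mice of the same group. Within groups the SD of log2 CPM was 0.41 for Got1 and 0.40 for Tat, larger than in 87.8% and 87.0% of all genes tested. The window of Tat lies at chr8:109990186-109990435 (plus strand) and that of Got1 at chr19:43524606-43524855 (minus strand), both in GRCm38.p6 and ending at the RefSeq start. Capitals mark CCAAT on either strand, which reads ATTGG when it lies on the other strand. Neither window holds TATAAA or GGGCGG.
Tat: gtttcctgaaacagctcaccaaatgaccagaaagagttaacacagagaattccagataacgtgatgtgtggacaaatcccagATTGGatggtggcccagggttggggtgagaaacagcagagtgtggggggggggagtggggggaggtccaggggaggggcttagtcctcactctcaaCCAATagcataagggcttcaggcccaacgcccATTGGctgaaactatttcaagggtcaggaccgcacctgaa
Got1: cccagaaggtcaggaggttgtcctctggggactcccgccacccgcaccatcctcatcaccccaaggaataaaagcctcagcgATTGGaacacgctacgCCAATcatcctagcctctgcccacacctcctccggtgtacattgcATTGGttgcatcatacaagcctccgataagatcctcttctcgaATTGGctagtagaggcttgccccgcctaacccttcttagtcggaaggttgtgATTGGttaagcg
Tat holds 3 copies, the nearest 36 to 40 bases before the start, and Got1 holds 5, the nearest 8 to 12 bases before it. At least 3 copies are found in 2.79% of the 32817 windows and at least 5 in 0.213%. Of the other members Qdpr and Hgd hold 2, Gch1 and Gstz1 hold 1, and Pcbd1, Hpd and Fah hold 0 in their windows. No readout of these livers bears on what binds there.

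Hpd, the dioxygenase that makes homogentisate, had the highest mean of the members by length-corrected level, though Tat overlapped with it. It was at 1934, 1698, 1674 and 2090 CPM with saline and at 1824, 1754, 1779 and 1965 CPM with 4-HPAA. The treated mice all lay within the range of the saline mice. The log2 fold change was -0.01 with an SE of 0.10 (95% interval -0.24 to 0.21, adjusted p = 1.00).

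Hgd, which opens the ring of homogentisate, had 1 mouse far from the rest. It was at 463, 479, 478 and 703 CPM with saline and at 488, 483, 466 and 553 CPM with 4-HPAA. Saline mouse 4 was 1.52 times the lowest of the 8 mice, and 4-HPAA mouse 4 was the next highest. The means were 531 ± 115 and 498 ± 38.2 CPM, and the log2 fold change was -0.09 with an SE of 0.14 (95% interval -0.41 to 0.22, adjusted p = 1.00). Without saline mouse 4 the estimate was 0.07, of the opposite sign.

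Gstz1, the maleylacetoacetate isomerase, was the steadiest member. It was at 486, 483, 484 and 523 CPM with saline and at 496, 473, 473 and 514 CPM with 4-HPAA. The highest mouse was 1.11 times the lowest, and the within-group SD of 0.06 on the log2 scale was smaller than in all but 1.76% of genes. Its log2 fold change of -0.01 had an SE of 0.07 and the narrowest interval of the 9, a fold of 0.88 to 1.11 (adjusted p = 1.00).

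Fah, the last enzyme of the route, was at 506, 510, 462 and 560 CPM with saline and at 517, 442, 445 and 527 CPM with 4-HPAA. Mice 2 and 3 of the treated group were below every saline mouse, while mice 1 and 4 were inside the saline range. The means were 510 ± 40.2 and 483 ± 45.4 CPM. The log2 fold change was -0.08 with an SE of 0.10 (95% interval -0.29 to 0.14, adjusted p = 1.00), and it stayed below 0 when any single mouse was left out (-0.13 to -0.03).

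Levels can be compared between genes only per transcript length, and on the TPM scale the 9 genes spanned more than an order of magnitude. Over the 8 mice Hpd averaged 2240 ± 182 TPM and Tat 1882 ± 463 TPM. They were followed by Gstz1 (599 ± 13.9), Fah (516 ± 35.9), Hgd (501 ± 74.0), Got1 (392 ± 108), Qdpr (353 ± 34.6), Pcbd1 (242 ± 28.5) and Gch1 (99.4 ± 7.37). All were abundant: Hpd was at percentile 99.5 of the genes tested and Gch1 at 92.0. The ranges over mice did not overlap between Tat and Gstz1, between Gstz1 and Fah, between Qdpr and Pcbd1 or between Pcbd1 and Gch1. Hpd and Tat could not be ordered beyond their spread, since Hpd was the higher of the pair in 6 of 8 mice. The same held for Fah and Hgd (6 of 8), Hgd and Got1 (6 of 8) and Got1 and Qdpr (5 of 8). The place of Gstz1 depended on how length was counted. With the length of its most abundant transcript it averaged 505 TPM and stood in place 5, behind Fah (532) and Hgd (514).

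**Figure D3:**
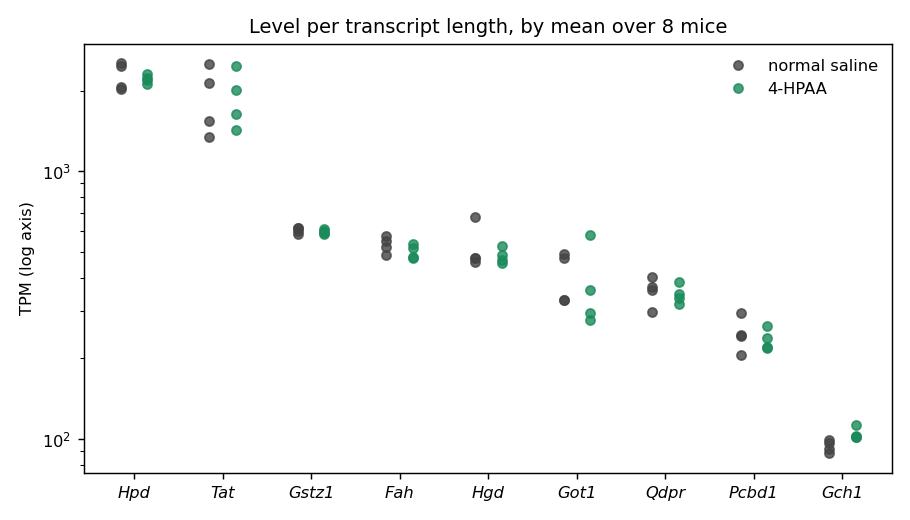
Level per transcript length (TPM, log axis) of the 9 genes in order of their mean over 8 mice; each point is a mouse, normal saline in grey and 4-HPAA in green. Hpd and Tat stand above the others, with Tat spread from 1338 to 2505 TPM, and Gch1 is lowest at 88.4 to 113 TPM.

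The levels of most members varied together from mouse to mouse. Of the 36 pairs of members, 26 (72.2%) had a Pearson correlation of log2 CPM above 0.5 over the 8 mice, while 14% of all pairs of tested genes did. Those pairs take in genes of every level, and pairs of equally abundant hepatocyte genes were not examined. The 36 pairs share 9 genes and 8 mice, so they are not independent. The median r was 0.69, and the pairs ranged from -0.14 (Gch1 with Got1) to 0.94 (Pcbd1 with Fah). By this measure the 8 pairs with Gch1 were the weaker ones, between -0.14 and 0.47, whereas the lowest of the 28 pairs without it was 0.44 (Qdpr with Tat). By ranks the gap was smaller: Spearman's rho was 0.10 to 0.79 for the pairs with Gch1 (median 0.56) and 0.19 to 0.93 for the others (median 0.67). Centred on the group means, r was -0.04 to 0.74 with Gch1 (median 0.51) and 0.44 to 0.96 without it (median 0.75).

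By permutation over the 40320 orders of the mice, with Benjamini-Hochberg adjustment over 36 pairs, 6 pairs passed by Pearson's r and 2 by Spearman's rho. Pcbd1 and Fah had r = 0.94 (permutation p = 6.20e-04, adjusted p = 0.0223) and rho = 0.93 (p = 0.00223, adjusted p = 0.0402), and r was 0.93 without the 2 mice farthest from the median of Pcbd1. Gstz1 and Fah, consecutive enzymes, had r = 0.89 (permutation p = 0.00285, adjusted p = 0.0257) and rho = 0.93 (p = 0.00223, adjusted p = 0.0402), and r was 0.84 without 2 mice. Hgd and Gstz1 had r = 0.87 and rho = 0.60 (permutation p = 0.00424 and 0.132, adjusted p = 0.0304 and 0.198). That relation rested on the 2 mice farthest from the median of Hgd, without which r was 0.37. The other 3 pairs that passed by r joined Pcbd1 to Qdpr (0.91), to Gstz1 (0.90) and to Hgd (0.82). Centred on the group means, the median r was 0.72 and 6 pairs passed.

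The strength of the relation depended on which mice were kept. Saline mouse 4 was the highest of all mice in 6 members (Pcbd1, Qdpr, Hpd, Hgd, Gstz1 and Fah) and 4-HPAA mouse 4 in 2 (Tat and Got1), while 4-HPAA mouse 1 was the highest in Gch1. The summed pericentral, endothelial, stellate and Kupffer cell lists were lowest in the mice numbered 4, and the summed hepatocyte list highest. Each of these lists held genes that did not follow its sum. Without both of these mice the median r fell to 0.31 and 11 pairs were above 0.5. Without the 2 libraries rich in globin RNA, which also include 4-HPAA mouse 4, the median r was 0.72, with 27 pairs above 0.5. The mice numbered 4 and the libraries rich in globin RNA were left out after the data were seen. Without the 2 libraries farthest from the median of 1 gene of each pair, the median r was 0.45. Leaving out the mice with the highest levels can lower r whatever sets those levels. The part of zonation and of other cell types in the levels of the members was not tested.

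**Figure D4:**
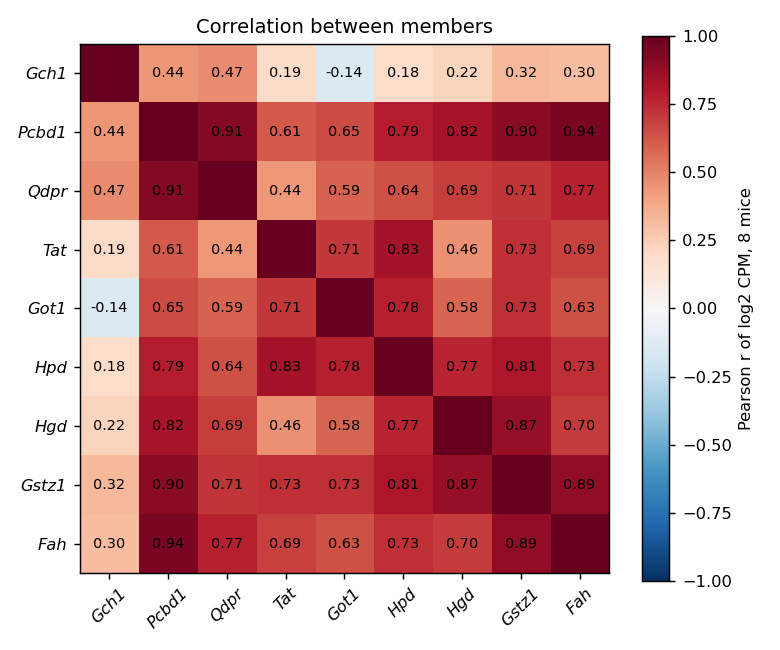
Pearson correlation of log2 CPM between each pair of members over 8 mice, on a colour scale from -1 (blue) to 1 (red), with the value in each square. The row of Gch1 stays between -0.14 and 0.47, and the other pairs reach from 0.44 to 0.94.

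For each member the genes whose levels followed it most closely over the 8 mice were listed, as a description only. Gch1 was close to Anapc11 (r = 0.97) and Pgpep1 (0.92). Tat was closest to Atp5a1 (0.99), the alpha subunit of ATP synthase, and to Chmp5 and Vdac1 (0.98 and 0.97). Atp5a1 itself moved little, from 421 to 505 CPM. Hpd was closest to Cyp2a4 (0.98), a steroid hydroxylase with near-identical paralogs, which ranged from 0.558 to 275 CPM. Gstz1 was closest to Clybl (0.99), Sf3b2 (0.99) and Ndufs3 (0.98), and Fah to Nat9 (0.99), Isca2 (0.98) and Slc6a12 (0.97). Pcbd1 led with Pold4 (0.98), Qdpr with Chaf1b (0.97), Got1 with Arl3 (0.98) and Hgd with Gatd1 (0.98).

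Summed over transcripts, a gene can hide an exchange between its isoforms, so the 41 transcripts of the members were also followed singly. In 7 of the 9 genes a single protein-coding transcript held nearly all counts, from 93.0% (Hgd-203) to 99.9% (Pcbd1-201). Of the 41 transcripts 32 reached 10 counts in all 8 libraries and could be tested. None had an adjusted p under 0.05 by edgeR (0% of all transcripts tested), and 1 had an unadjusted p under 0.05, where 3.83% of all 25533 transcripts did. That was Hpd-203, which holds 0.129% of the counts of Hpd. Its counts were 123, 58.5, 84.2 and 105 with saline and 64.0, 61.9, 36.8 and 37.0 with 4-HPAA (log2 fold change -0.85, SE 0.29, edgeR adjusted p = 1.00). Among the tested transcripts of members, 0 of 32 had groups without overlap, against 2.1% of all transcripts.

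Most counts of Gstz1 were assigned to a pair of transcripts with different annotated starts. These are estimates of kallisto, and where transcription starts was not measured. Gstz1-201 begins at chr12:87147718 and held 79.95% of the counts (64.7% of the TPM), and Gstz1-204 begins 9890 bases downstream at chr12:87157608 and held 18.3% of the counts and 33.8% of the TPM. The share of Gstz1-204 was 17.9, 19.1, 18.9 and 16.3% of counts with saline and 18.9, 21.2, 17.6 and 16.3% with 4-HPAA. Both groups spread around the same level (means 18.0 ± 1.29% and 18.5 ± 2.07%, exact permutation test, two-sided, p = 0.800). The log2 fold changes were -0.01 with an SE of 0.09 for Gstz1-201 and 0.03 with an SE of 0.09 for Gstz1-204 (edgeR, adjusted p = 1.00 for each). The bases before Gstz1-204 are shown because they precede this second start. The RefSeq window (GRCm38.p6, chr12:87157353-87157602, plus strand) ends 5 bases before the first base of the transcript, with CCAAT and GGGCGG on either strand in capitals.
Gstz1, second start: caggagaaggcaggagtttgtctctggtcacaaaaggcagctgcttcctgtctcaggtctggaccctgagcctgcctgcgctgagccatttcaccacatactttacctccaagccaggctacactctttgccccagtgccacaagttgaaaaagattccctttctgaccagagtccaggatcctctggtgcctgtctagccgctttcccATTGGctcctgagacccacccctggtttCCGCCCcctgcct
It holds 1 CCAAT and 1 GGGCGG, both read on the other strand, at 37 to 41 and 8 to 13 bases before the RefSeq start. At least 1 GGGCGG is found in 32.7% of all windows.

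Qdpr was the gene whose counts were divided most unevenly between mice. Qdpr-201, the main coding transcript, held 75.3, 83.7, 80.7 and 76.8% with saline and 80.8, 87.8, 95.3 and 80.7% with 4-HPAA. Qdpr-210, annotated as a retained intron, held 13.5, 7.01, 7.29 and 13.6% with saline and 10.6, 5.85, 1.44 and 7.52% with 4-HPAA. Its level overlapped between the groups and its log2 fold change was -0.69 with an SE of 0.52 (edgeR, adjusted p = 1.00). Qdpr-203, a coding transcript, did not meet the filter because it was estimated at 0 in 4-HPAA mouse 2. Its counts were 319, 437, 321 and 644 with saline and 236, 0, 78.6 and 154 with 4-HPAA, so that every treated mouse was below every saline mouse. Its share was 5.13 ± 1.37% with saline and 1.43 ± 1.27% with 4-HPAA (n = 4 each, exact permutation test, two-sided, p = 0.0286, the smallest possible). Qdpr-203 was singled out from the 41 transcripts of the members after its values were seen. Groups without overlap in CPM were found in 2.1% of all transcripts that met the filter, which Qdpr-203 did not. With a filter of 10 counts summed over the libraries its log2 fold change was -1.83 with an SE of 0.93 (edgeR, unadjusted p = 0.082, adjusted p = 1.00). An estimated count of 0 can arise where kallisto assigns shared reads to another transcript of the same gene.

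Over the members, 6 of the 7 tested transcripts annotated as retained introns had estimates below 0, as did 20 of their 32 tested transcripts of all kinds. Over all genes 61.8% of 4714 tested retained introns and 49.4% of all tested transcripts were below 0. In the libraries as a whole retained introns held 2.23 to 2.37% of counts with saline and 1.94 to 2.30% with 4-HPAA, lowest in 4-HPAA mouse 4. The part of this difference in the transcripts of the members was not tested.

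**Figure D5:**
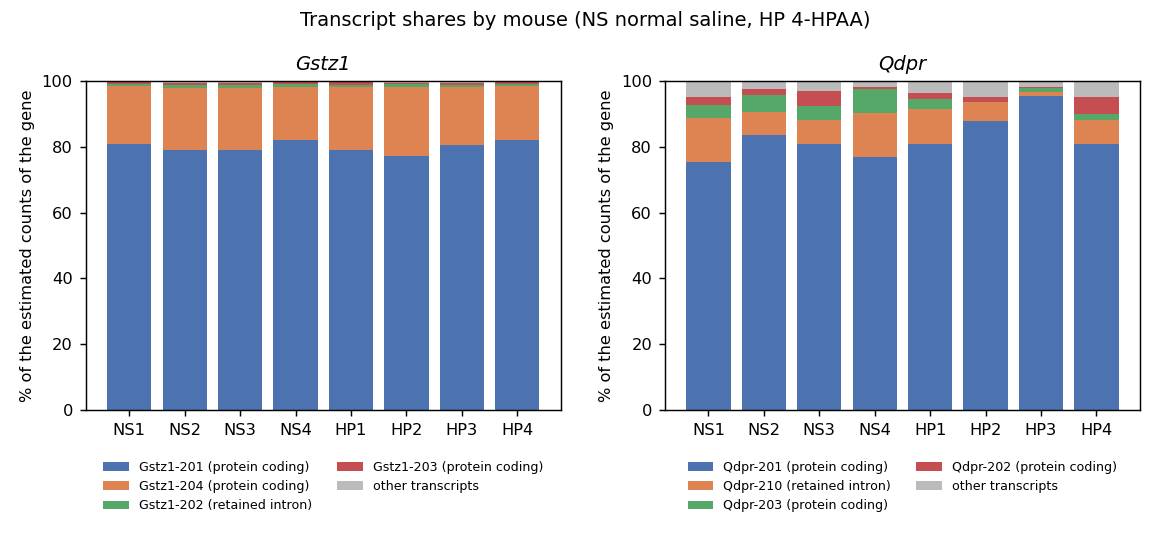
Share of the estimated counts of Gstz1 (left) and Qdpr (right) held by each transcript (vertical axis, %) in each of the 8 mice, with NS for normal saline and HP for 4-HPAA. The share of Gstz1-204 stays at 16.3 to 21.2%, while that of Qdpr-201 runs from 75.3 to 95.3%.

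Further genes of the cofactor and of aromatic amino acids were balanced between higher and lower estimates. Of 33 listed genes 32 were tested, and 0 passed the test, 0 had an unadjusted p under 0.05, 16 estimates were above 0 and 16 below. Their median log2 fold change was -0.0039, beside 0.0007 for all genes, and they ranged from -0.27 to 0.13.

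Of the 6 further genes of tetrahydrobiopterin synthesis and recycling, 5 were above 0 and 1 below, where 6489 of all 12883 genes tested were above 0. None of the 6 had an unadjusted p under 0.05 (edgeR). Spr, the sepiapterin reductase, was at 64.9 to 83.5 CPM with saline and 74.0 to 97.4 CPM with 4-HPAA (log2 fold change 0.11, SE 0.11). Gchfr, the protein that mediates feedback on Gch1, was at 53.3 to 68.2 and 55.1 to 77.9 CPM (0.03, SE 0.12). Cbr1, a carbonyl reductase, was the single one below 0, at -0.16 with an SE of 0.17. In a list of 4 partners of these enzymes, 2 were above 0 and 2 below.

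Of the other transaminases and enzymes of aromatic acids, 6 were above 0 and 10 below, and Hpdl, a relative of Hpd, was too low to test (at most 0.412 CPM). Got2, the mitochondrial counterpart of Got1, was steady at 440 ± 26.9 and 432 ± 25.5 CPM. Aldh2, the mitochondrial aldehyde dehydrogenase, was at 1511 ± 61.0 and 1571 ± 121 CPM (log2 fold change 0.05, SE 0.09). Aacs, which activates acetoacetate in the cytosol, had the largest estimate of the list at -0.27 with an SE of 0.29, and its saline mice ran from 38.7 to 112 CPM.

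Of the 6 transporters, 3 were above 0 and 3 below. Slc16a10, which carries aromatic amino acids across the hepatocyte membrane, was at 118, 109, 105 and 81.0 CPM with saline and at 110, 126, 113 and 79.6 CPM with 4-HPAA, lowest in both mice numbered 4. Slc7a5 was at 2.73 ± 1.38 and 2.37 ± 0.742 CPM, near the lower end of what was tested. Among 9 genes of the glucocorticoid and fasting response, listed because Tat responds to both, 0 passed the test and 1 had an unadjusted p under 0.05 (1.75% of all genes did), Tsc22d3 at 129 ± 23.2 CPM with saline and 107 ± 2.81 CPM with 4-HPAA (log2 fold change -0.27, SE 0.12, edgeR adjusted p = 1.00).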

How the data were processed

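The authors pseudoaligned 100 bp paired reads, from a directional mRNA kit, with kallisto at its standard parameters and deposited estimated counts per transcript and mouse, without normalization. No use of strand is stated, so reads of overlapping genes, such as Pomt2 beside Gstz1 and Psmd9 beside Hpd, may not be told apart. FastQC 0.11.9 is named in the submitters' processing notes. Each column was matched to its mouse by name.

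Of 119414 transcripts, 116728 were summed into 35975 genes (GENCODE M21, GRCm38) and rounded. The 2686 unmatched transcripts held 0.703% to 1.06% of a library. A gene entered the test if no library had fewer than 10 counts. The test was the quasi-likelihood F test of edgeR 4.0.16 in R 4.3.3, after TMM normalization and with Benjamini-Hochberg adjusted p (threshold 0.05), and transcripts were treated likewise. SE values are the size of the log2 fold change over the root of F. Correlations used log2 CPM with a prior count of 2. TPM were computed from transcript counts and annotated lengths. Promoter sequences come from RefSeq (GRCm38.p6), and all 9 members matched by symbol. Other choices tried were limma-voom (limma 3.58.1), DESeq2 1.42.0, other normalizations and filters, single libraries left out and the replicate number as a block. The fits were tested on simulated counts. Members, lists and tests were chosen with earlier results of these data known. Named genes are the members, the listed pathway genes with the largest estimates or a stated role, and genes among the 3 most correlated with a member; others are marked, and some genes of these lists are not reported here. The libraries are taken as separate mice.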

Additional observations from a re-analysis of the deposited data

Results flagged for a closer look

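In the saline group 2 values stood far from the other 3 mice, both in saline mouse 4. Hgd was at 703.5 CPM there against 463 to 479 CPM in the rest, a gap of 0.934 of the range of the group, and Gstz1 was at 522.6 CPM against 483 to 486 CPM, a gap of 0.924. Both gaps exceed the 95% value of Dixon's test for 4 samples, which chance exceeds in about 1 of 20 groups, beside 2 of the 26 groups of members and transcript shares examined. The same library had the lowest summed pericentral level (5831 CPM), and the part of this in both values was not tested.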

How the results depend on the processing

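The spread among the 4 libraries of a group limited precision. The parts of the mice and of read assignment in that spread were not separated. Over 153 alternative fits of the members the lowest adjusted p was 0.9989, so no call changed in them. With the 9 permutation tests added, 29 of 162 estimates turned sign, none of Gch1 or Fah. Qdpr, at -0.0013, became 0.00067 with DESeq2, 0.0044 with limma-voom, 0.00066 with RLE normalization, 0.0037 with a filter of 10 counts summed, 0.0036 with no filter, 0.0045 in the permutation test of log2(CPM + 1) and 0.052 from protein-coding transcripts alone. Tat became -0.28 without both libraries rich in globin RNA. Leaving out each library in turn gave log2 fold changes of 0.11 to 0.20 for Gch1, -0.14 to 0.051 for Pcbd1, -0.076 to 0.064 for Qdpr, -0.16 to 0.17 for Tat, -0.39 to 0.042 for Got1, -0.059 to 0.050 for Hpd, -0.16 to 0.071 for Hgd and -0.045 to 0.014 for Gstz1. The count of members above 0 ran from 1 to 8. The cause was not tested. Over all genes DESeq2 called 2, none a member, against 0 with edgeR, and leaving out 1 library each gave 0 to 1, the 1 without 4-HPAA mouse 1. Genes with an unadjusted p under 0.05 numbered 225, 415 with a filter of 10 counts summed, 528 with no filter and 340 without 4-HPAA mouse 1. With the length of the most abundant transcript 3 members (Gstz1, Fah and Hgd) changed place in the order of levels.

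The replicate numbers of the labels pair the mice by number only. Deviations of same-numbered libraries correlated at 0.04 to 0.48, and not every pair was above 0.1. Those of libraries with different numbers correlated at -0.48 to 0.47. With the replicate number as a block Qdpr became 0.0046, Got1 was -0.12, Gch1 0.16, 0 genes passed and 336 had an unadjusted p under 0.05. Not every library correlated best with its own number.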
